A study of Oryza sativa Japonica Group with 4 samples.

Results

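The starch branching, debranching, phosphorylase and disproportionating enzymes were followed in rice endosperm at high temperature. They were taken as 9 genes, chosen by gene ID: the branching enzymes BEI (LOC_Os06g51084), BEIIa (LOC_Os04g33460) and BEIIb (LOC_Os02g32660), the isoamylases ISA1 (LOC_Os08g40930), ISA2 (LOC_Os05g32710) and ISA3 (LOC_Os09g29404), pullulanase (LOC_Os04g08270), the plastid phosphorylase PHO1 (LOC_Os03g55090) and the disproportionating enzyme DPE1 (LOC_Os07g43390). These 9 of the 56797 gene IDs in the table had 19 of its 67393 transcript models, and all 19 passed the filter on low counts. The endosperm came from Oryza sativa ssp. japonica cultivar Nipponbare and was sequenced as 4 poly(A) RNA libraries. HT1 and HT2 came from plants moved 5 days after pollination to 35°C by day and 28°C by night, and RT1 and RT2 from plants at 28°C by day and 22°C by night, with 12 h days, all sampled 5 days later. No genotype, transgene or other agent set the groups apart, and the labels do not say whether the 2 libraries of a group came from separate plants, so p-values measure only the spread between these libraries. According to the methods, fresh seeds were collected before RNA was extracted from endosperm.

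Starch is laid down in the amyloplast as amylopectin, a branched glucan, and amylose, which is nearly linear. Branching enzymes cut a linear chain and rejoin the piece as a branch, and debranching enzymes of the isoamylase and pullulanase types remove branches that are out of place, which lets amylopectin crystallise. PHO1 lengthens short chains from glucose 1-phosphate, and DPE1 moves stretches of chain from one glucan to another. In rice, loss of BEIIb gives the amylose-extender endosperm and loss of ISA1 the sugary endosperm, and changes in these enzymes are a recurrent theme in work on chalky grain formed under heat.

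Counts summed over all transcript models came to 6395533 to 7813601 at HT and 8022185 to 11492692 at RT. Models of a gene share reads, so these sums can hold a read more than once. Reads of LOC_Os09g00999.1 together with LOC_Os09g01000.1 made up 10.05% to 35.2% of the total at HT and 8.51% to 25.9% at RT, so reads were scaled with TMM factors (0.891 and 1.13 at HT, 1.32 and 0.756 at RT). Levels are given as RPKM, which is CPM (reads scaled to a common library size) divided by the transcript length in kilobases. The endosperm label was checked against storage proteins and markers of other seed parts. Glutelin genes, summed with 1 model per gene, held 214890 and 298488 CPM at HT and 209536 and 357252 at RT. The 21 chlorophyll-binding and Rubisco small subunit genes of green pericarp held 1486 and 767 at HT and 1061 and 890 at RT, and the 7 oleosin genes of embryo and aleurone held 897 and 1083 at HT and 793 and 1288 at RT. Of the oleosin models only LOC_Os02g30690.1 had 0 reads in all 4 libraries, and of the pericarp models 0 did. Reads of these markers were thus present, but which seed part they came from was not tested. The summed levels of these markers were far below those of glutelin. They were similar to that of BEI alone (LOC_Os06g51084.1), which had 776 and 761 CPM at HT and 820 and 1365 at RT.

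Of the 9 genes, 6 had lower levels in both HT libraries than in either RT library: BEIIb, BEI, ISA1, pullulanase, PHO1 and DPE1. The levels of BEIIa, ISA2 and ISA3 overlapped between the temperatures. No model passed the Benjamini-Hochberg threshold of 0.05 in edgeR's quasi-likelihood test, in which 0% of all 27358 transcripts tested passed it. None of the 19 had an unadjusted p under 0.05 either, where 2.79% of all transcripts (764) were lower at HT and 4.15% (1136) higher. With 1 model per gene, these shares were 2.73% lower and 4% higher of 19416 genes. DESeq2 passed 58 transcripts (0.212%) at the adjusted threshold and none of the 19. It gave 5 of the 19 an unadjusted p under 0.05, all lower at HT (both BEIIb models, ISA1, pullulanase and PHO1), where 1.18% of all transcripts were lower and 2.09% higher. With limma, 0 transcripts passed the adjusted threshold. It gave 0 of the 19 an unadjusted p under 0.05, where 2.66% of all transcripts were lower and 4.14% higher. Counted by overlap, 14 of the 19 models had both HT libraries below both RT libraries and 0 had them above, against 17.7% and 19.1% of all transcripts. Models of a gene share reads, so the count per gene is the plainer one: 6 of 9 below and 0 above, against 17.5% and 19.2% of genes. The median log2 fold change of the 19 models was -0.54 (-0.55 over the 9 genes, 1 model each), against 0.0022 over all transcripts. Without RT2 the median of the 19 models was -0.19 and without RT1 it was -0.84, with 8 of the 19 being models of BEI, whose RT libraries differed. Over the 9 genes these medians were -0.59 and -0.83. In bulk RNA, fewer cells of a type and less RNA per cell cannot be told apart.

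**Figure D1:**
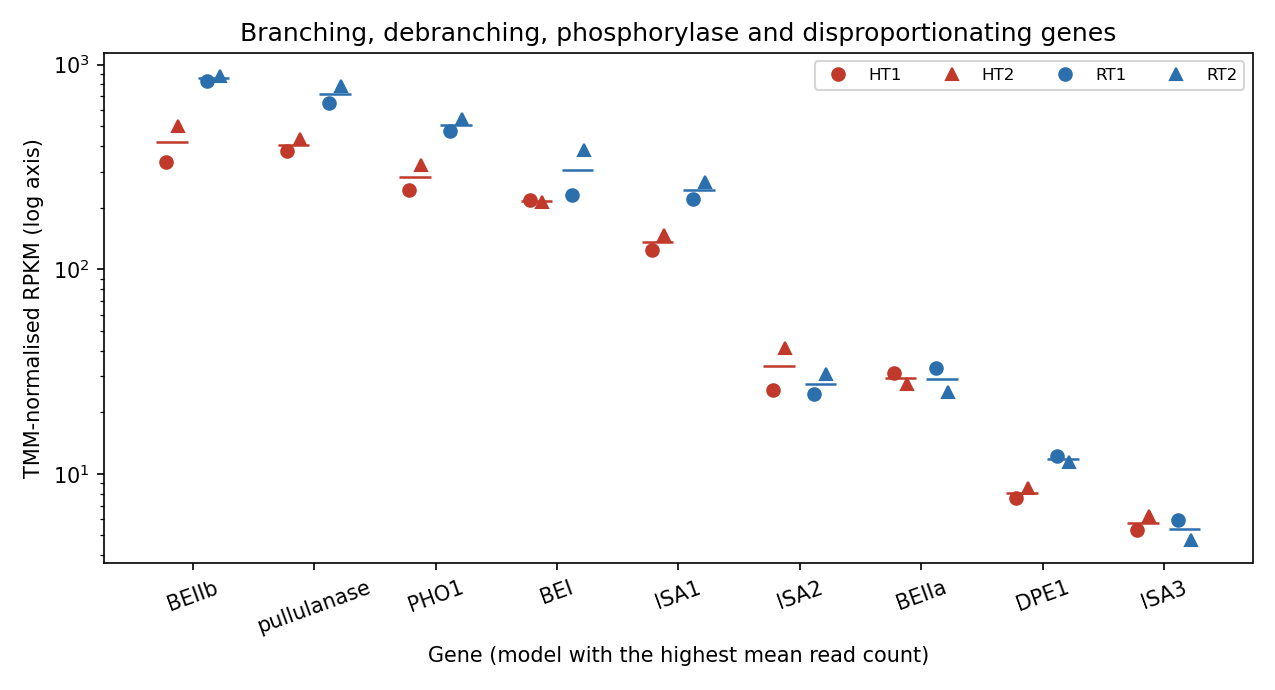
TMM-normalised RPKM (log axis) of the 9 genes, each by its model with the highest mean read count, in HT1 and HT2 (red) and RT1 and RT2 (blue), with the group mean as a line. The red points lie below the blue ones for BEIIb, pullulanase, PHO1, BEI, ISA1 and DPE1, and are mixed with them for ISA2, BEIIa and ISA3.

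The genes fell into an abundant and a scarce group, which differed in level far beyond the spread between libraries. BEIIb, pullulanase, PHO1, BEI and ISA1 had at least 124 RPKM in every library. ISA2, BEIIa, DPE1 and ISA3 had at most 41.4 RPKM in any of them. By mean level BEIIb ranked 77th among all tested transcripts at HT and 52nd at RT, and ISA3 ranked 7992nd at HT and 8588th at RT. The order of the means was the same at both temperatures except that ISA2 lay above BEIIa at HT and below it at RT, and these 2 genes overlapped at each temperature. The ranges of BEIIb and pullulanase overlapped at HT, and those of BEI and ISA1 at RT. Within single libraries, BEIIb lay below pullulanase in HT1 (ratio 0.887) and above it in HT2 (1.15). BEI lay above ISA1 in every library, though only just in RT1 (1.04).

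The branching enzyme BEIIb showed the largest difference of the 9 genes. Its longer model LOC_Os02g32660.1 (2958 bases) had 335 and 499 RPKM in HT1 and HT2, against 833 and 877 RPKM in RT1 and RT2. Scaled by library totals alone, the highest HT and lowest RT values were closer, at 559 RPKM in HT2 and 660.4 RPKM in RT2. With TMM the lowest RT library lay well above the highest HT library. The log2 fold change was -1.04 (standard error 0.51, 95% interval -2.21 to 0.14, edgeR unadjusted p = 0.0765, adjusted p = 0.755), that is 0.488 times the RT level. The shorter model LOC_Os02g32660.2 (2268 bases) had 171 and 239 RPKM at HT, against 342 and 440.5 RPKM at RT, and its log2 fold change was -0.93 (standard error 0.43, edgeR adjusted p = 0.736). Its reads were 0.392 and 0.367 times those of the longer model at HT and 0.315 and 0.385 times at RT, so the balance of the models overlapped between the temperatures.

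BEI, a branching enzyme with a preference for longer chains, was lower at HT by a narrow margin. Its model with the most reads, LOC_Os06g51084.1 (3568 bases), had 217 and 213 RPKM in HT1 and HT2, against 229.9 and 382 RPKM in RT1 and RT2. The HT libraries were close together, and RT1 lay just above them while RT2 stood apart. The log2 fold change was -0.51 (standard error 0.46, 95% interval -1.57 to 0.55, edgeR unadjusted p = 0.302, adjusted p = 0.886). It was -0.10 without RT2 and -0.83 without RT1, so its size rested on which control library was used. The table lists 8 models of BEI, from 3369 to 4786 bases. The model with the fewest reads had 77.8% and 85.7% of the reads of the model with the most at HT, and 88.3% and 82.2% at RT, so the 8 are nearly the same measurement. Their log2 fold changes ran from -0.57 to -0.51.

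BEIIa is the branching enzyme found in leaves and other tissues as well as grain. Its levels overlapped between the temperatures, unlike those of BEIIb and, by a narrow margin, those of BEI. The single BEIIa model LOC_Os04g33460.1 had 31.0 and 27.6 RPKM in HT1 and HT2, against 33.1 and 24.97 RPKM in RT1 and RT2. The HT values lay between the RT values. The log2 fold change was 0.0095 (standard error 0.29, 95% interval -0.66 to 0.68, edgeR adjusted p = 0.998), and it was below 0 with DESeq2 size factors, upper quartile normalization and library totals alone (-0.0032 to -0.095). The interval allows changes of either sign. This model is 1266 bases long, the shortest of the 19, so the level per length of BEIIa rests on a short annotation.

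Of the debranching enzymes, ISA1, the catalytic isoamylase of endosperm, was lower at HT. LOC_Os08g40930.1 (3772 bases) had 124 and 147 RPKM in HT1 and HT2, against 220.5 and 266 RPKM in RT1 and RT2. The groups did not overlap. On the log2 scale the fold change was -0.84 (standard error 0.42, 95% interval -1.80 to 0.11, edgeR unadjusted p = 0.0766, adjusted p = 0.755).

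Pullulanase, the other type of debranching enzyme, stood beside it. LOC_Os04g08270.1 (1993 bases) had 378 and 434 RPKM in HT1 and HT2, against 650.3 and 785 RPKM in RT1 and RT2. Both HT values were again under both RT values, for a log2 fold change of -0.82 (standard error 0.45, 95% interval -1.85 to 0.21, edgeR unadjusted p = 0.104, adjusted p = 0.792).

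ISA2, which lacks catalytic residues and joins ISA1 in a mixed complex, had 25.8 and 41.4 RPKM in HT1 and HT2, against 24.4 and 30.7 RPKM in RT1 and RT2 (LOC_Os05g32710.1, 2631 bases). HT2 was the highest of the 4 libraries and the groups overlapped. Its log2 fold change was 0.29 (standard error 0.35, 95% interval -0.52 to 1.09, edgeR adjusted p = 0.921), and -0.12 without HT2.

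ISA3, an isoamylase known in Arabidopsis from starch breakdown in leaves, was the least abundant of the 9 genes. LOC_Os09g29404.1 (3443 bases) had 127 and 154 reads in HT1 and HT2, against 309 and 99 reads in RT1 and RT2, which is 5.32 and 6.24 RPKM at HT and 5.94 and 4.76 RPKM at RT. The groups overlapped, and the log2 fold change was 0.11 (standard error 0.28, 95% interval -0.54 to 0.75, edgeR adjusted p = 0.965). The shorter models LOC_Os09g29404.2 and LOC_Os09g29404.3 had 37 to 69 reads at HT and 43 to 123 at RT, and log2 fold changes of -0.21 and -0.053.

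PHO1, the plastid phosphorylase, had 243 and 323 RPKM in HT1 and HT2, against 475 and 541 RPKM in RT1 and RT2 (LOC_Os03g55090.1, 2856 bases). HT and RT did not overlap, and the log2 fold change was -0.84 (standard error 0.46, 95% interval -1.89 to 0.20, edgeR unadjusted p = 0.101, adjusted p = 0.789).

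DPE1, which works on the same short glucans as PHO1 and is known to bind it in rice endosperm, had 112 and 129 reads in HT1 and HT2, against 388 and 146 reads in RT1 and RT2 (LOC_Os07g43390.1, 2114 bases). After scaling these were 7.64 and 8.52 RPKM at HT and 12.2 and 11.4 RPKM at RT. The replicates of each group lay close together and the groups were apart. The log2 fold change was -0.55 (standard error 0.27, 95% interval -1.16 to 0.069, edgeR unadjusted p = 0.0748, adjusted p = 0.752). Scaled by library totals alone, DPE1 had 9.54 RPKM in HT2 and 8.61 RPKM in RT2, so its groups then overlapped, and 13 of the 19 models were left with both HT libraries below, against 9.08% of all transcripts.

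**Figure D2:**
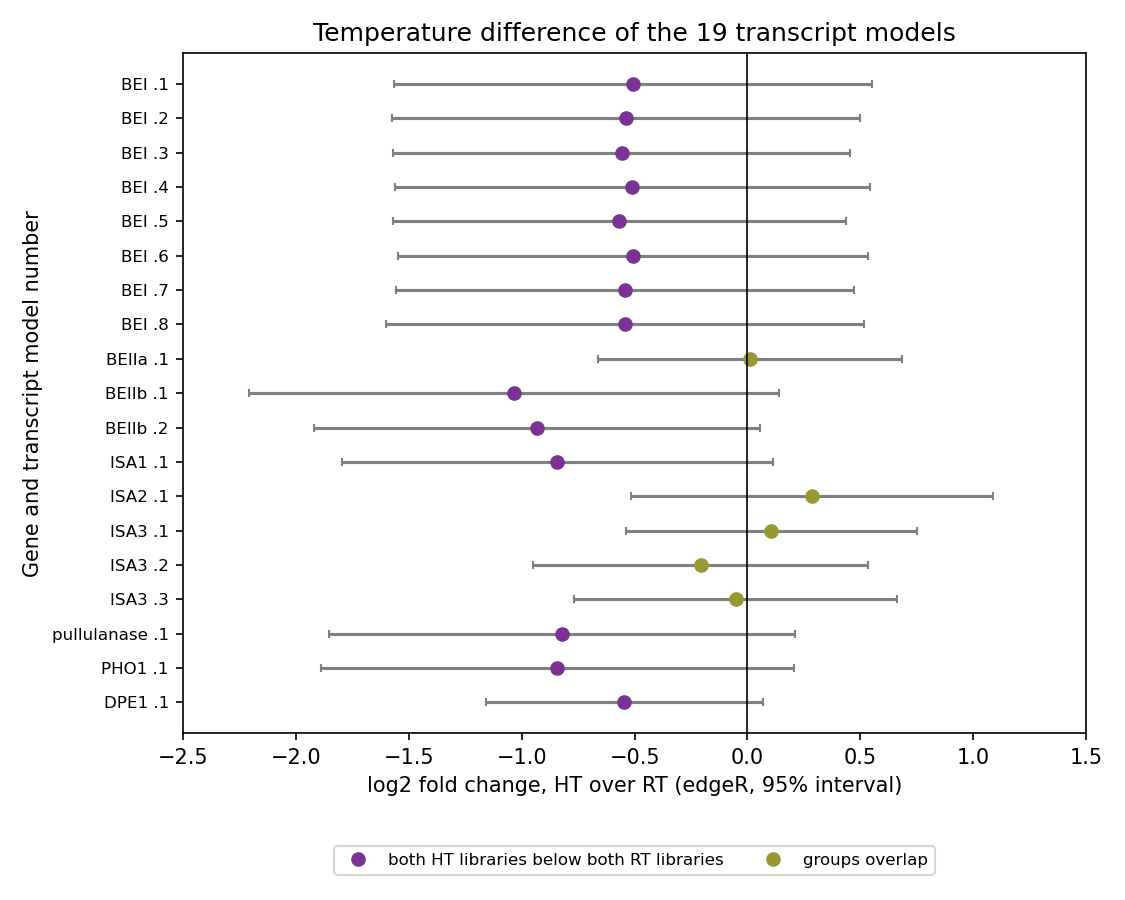
Log2 fold change of the 19 transcript models, HT over RT, with 95% intervals from the edgeR fit, coloured by whether both HT libraries lay below both RT libraries (14 models) or the groups overlapped (5 models). The intervals of all 19 models include 0, and the lowest values are those of BEIIb, -1.04 and -0.93.

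Ratios of reads per base between 2 genes of one library do not depend on the scaling between libraries, so they show the mix of the enzymes directly. Of the 36 pairs of the 9 genes, 23 (63.9%) had ratios that did not overlap between HT and RT, against 37.5% of all pairs of genes with at least 10 CPM. The 36 pairs share genes, and with 2 libraries a group the smallest two-sided p that an exact permutation test can give is 0.333, so no ratio could pass a threshold of 0.05.

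The ratio of ISA1 to ISA2 was 4.81 and 3.56 in HT1 and HT2, against 9.03 and 8.65 in RT1 and RT2. It was 0.468 times as high at HT. The ratio of BEIIb to BEIIa was 10.8 and 18.1 in HT1 and HT2, against 25.2 and 35.1 in RT1 and RT2, or 0.470 times as high at HT. BEIIb and ISA1 thus had a smaller lead over BEIIa and ISA2 in each HT library than in either RT library. The ratio of BEI to BEIIa overlapped, with 7.02 and 7.73 at HT and 6.95 and 15.3 at RT. The largest difference of the 36 was that of BEIIb to ISA2, with 13.0 and 12.1 at HT and 34.1 and 28.6 at RT.

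Ratios among pullulanase, PHO1 and ISA1 differed little. That of pullulanase to ISA1 was 3.05 and 2.95 in HT1 and HT2, against 2.95 and 2.95 in RT1 and RT2. These are the genes of the 2 debranching types, and their ratio differed by 1.02-fold between the temperatures. The ratio of PHO1 to ISA1 was 1.97 and 2.19 at HT and 2.15 and 2.04 at RT, and that of pullulanase to PHO1 was 1.55 and 1.35 at HT and 1.37 and 1.45 at RT. These ratios overlapped between the temperatures. Ratios to BEI varied more. That of BEIIb to BEI overlapped, with 1.54 and 2.34 at HT and 3.62 and 2.29 at RT, RT2 lying within the range of the HT libraries, and so did that of PHO1 to BEI, with 1.12 and 1.51 at HT and 2.07 and 1.41 at RT. The other abundant enzymes differed from BEI without overlap, but by narrow margins: pullulanase to BEI was 1.74 and 2.04 at HT and 2.83 and 2.05 at RT, and BEI to ISA1 was 1.76 and 1.45 at HT and 1.04 and 1.44 at RT. That of BEIIb to PHO1 did not overlap, at 1.38 and 1.55 at HT and 1.75 and 1.62 at RT.

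**Figure D3:**
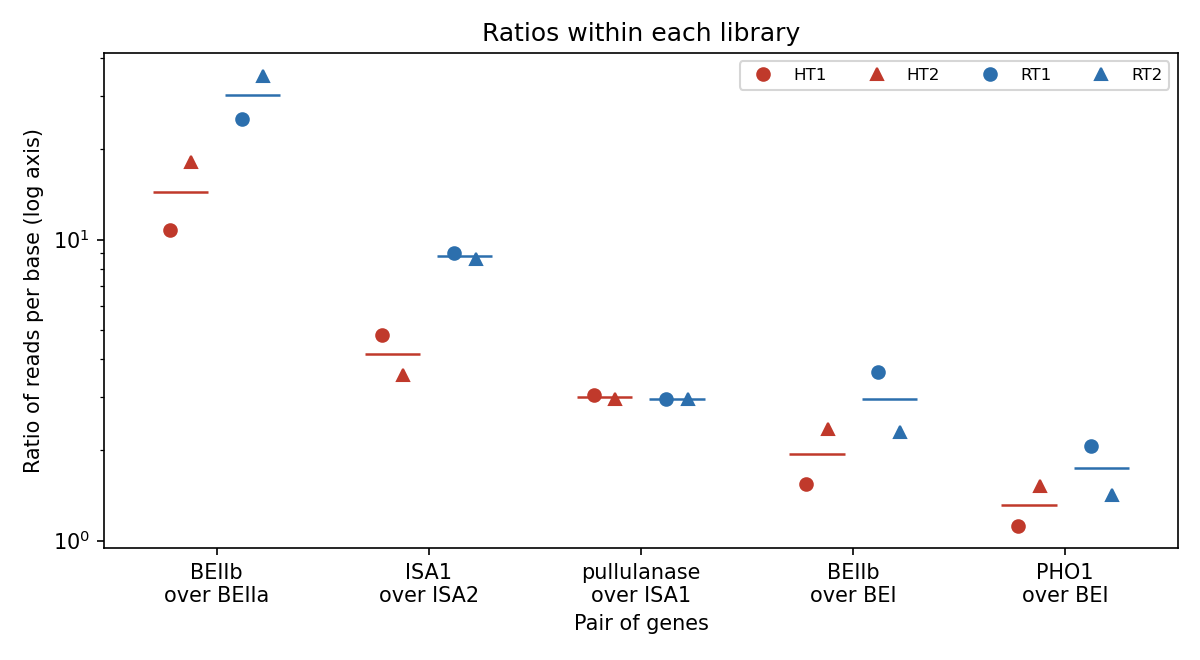
Ratios of reads per base (log axis) between 5 pairs of genes in each library, HT in red and RT in blue, with the group mean as a line. The ratios of BEIIb to BEIIa and of ISA1 to ISA2 are lower in both HT libraries, pullulanase to ISA1 stays between 2.95 and 3.05, and the 2 ratios to BEI overlap.

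Summed over the 9 genes with 1 model each, the level was 1367 and 1700 RPKM in HT1 and HT2, against 2484 and 2922 RPKM in RT1 and RT2. BEIIb made up 24.5% and 29.3% of this sum at HT and 33.5% and 30.0% at RT, and pullulanase 27.6% and 25.6% at HT and 26.2% and 26.8% at RT. The share of ISA2 was 1.89% and 2.43% at HT and 0.983% and 1.05% at RT, and that of BEIIa 2.27% and 1.62% at HT and 1.33% and 0.855% at RT. Shares of BEIIb were lower, and those of ISA2 and BEIIa higher, in both HT libraries than in both RT libraries. The sizes of these shares depend on how models are counted: summed over all models, with the 8 of BEI sharing reads, BEI led with a mean of 49.1% at HT and 42.5% at RT, and BEIIb had 20.6% at HT and 25.7% at RT. In that sum the means were 13.6% at HT and 14.7% at RT for pullulanase, 1.11% at HT and 0.564% at RT for ISA2, and 0.989% at HT and 0.615% at RT for BEIIa. The replicates did not move together for all genes. HT2 lay above HT1 for 7 of the 9 genes and RT1 above RT2 for 3.

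The other starch lists were described by the same counts. Of all tested transcripts, 17.7% had both HT libraries below both RT libraries and 19.1% above. With 1 model per gene these shares were 17.5% and 19.2%. In ADP-glucose supply, the AGPase subunits and the transporter BT1 that feed the synthases, 11 of 18 models had both HT libraries below both RT libraries and 0 above, with a median log2 fold change of -0.30 and 17 of 18 values below 0. Models of a gene share reads here too, and with 1 model per gene 4 of 7 were below and 0 above. The large subunit gene AGPL1 (LOC_Os03g52460.1) had 15.9 and 22.5 RPKM in HT1 and HT2, against 49.0 and 33.3 RPKM in RT1 and RT2, with an unadjusted p of 0.0127 and an adjusted p of 0.599 (edgeR). Among the starch synthases, which lengthen the chains that branching enzymes cut, 9 of 24 models were below and 6 above, with a median of -0.061. By gene, 3 of 10 were below and 2 above.

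Individual synthases ran in opposite directions. SSI (LOC_Os06g06560.1), which makes short chains, had 196 and 217 RPKM in HT1 and HT2, against 94.8 and 114 RPKM in RT1 and RT2, with a log2 fold change of 0.99 (unadjusted p = 0.0318, adjusted p = 0.686, edgeR). The 3 models of GBSSII, the granule-bound synthase of leaves, had 2.08 to 3.31 RPKM at HT and 5.22 to 7.34 RPKM at RT, with unadjusted p-values of 0.00424 to 0.00942 (edgeR). In the list of starch breakdown, made of GWD1, PHO2, DPE2 and the amylases, 4 of 21 tested models were below and 4 above, with a median of 0.16. These counts lie near the shares of all transcripts. By gene, 4 of 16 tested were below and 3 above. The alpha-amylase model LOC_Os08g36900.1 had 54.0 and 66.7 RPKM at HT and 24.96 and 30.1 RPKM at RT (unadjusted p = 0.0066, adjusted p = 0.567, edgeR). Another amylase model, LOC_Os09g39570.1, was lower at HT (unadjusted p = 0.00861, adjusted p = 0.573, edgeR). It had 4.83 and 4.26 RPKM at HT and 8.19 and 9.32 RPKM at RT. Over these lists, 5 models had an unadjusted p under 0.05 in edgeR and were lower at HT, against 2.79% of all transcripts. Those higher numbered 7, against 4.15%. Models of a gene recur in these counts: the 3 of GBSSII were among those lower, and most of those higher were models of SSIVa. The SSIVa model with the most reads, LOC_Os01g52250.4, had 2.18 and 1.92 RPKM in HT1 and HT2, against 1.16 and 1.27 RPKM in RT1 and RT2. With 1 model per gene, 3 were lower and 3 higher, against 2.73% and 4% of genes. In edgeR 0 passed the adjusted threshold (the lowest adjusted p was 0.513). With DESeq2, 5 models were lower and 4 higher at an unadjusted p under 0.05, against 1.18% and 2.09% of all transcripts. With library totals alone these counts were 2 and 0, against 0.976% and 1.44%. The lists share libraries with the 9 genes, and whether the 9 genes differ from them was not tested.

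**Figure D4:**
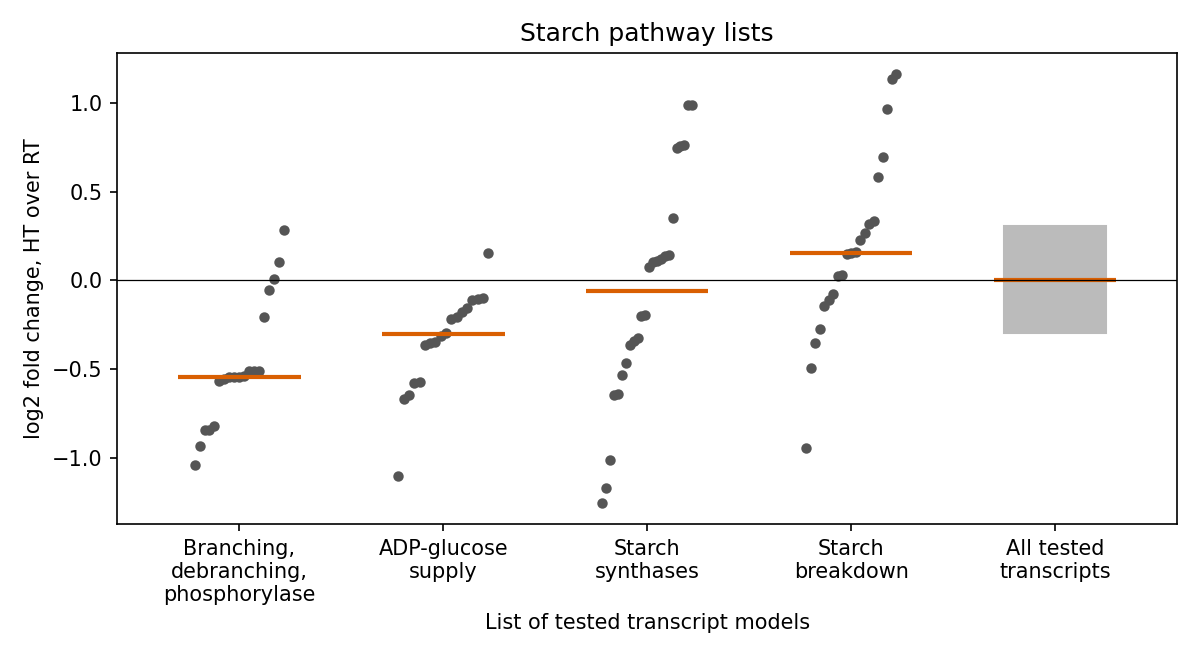
Log2 fold change (HT over RT) of each tested model of the 9 genes (19), ADP-glucose supply (18), starch synthases (24) and starch breakdown (21), with the list median as an orange line, beside the range between the quartiles of all 27358 transcripts (grey box, -0.30 to 0.31). The medians are -0.54, -0.30, -0.061 and 0.16.

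Among the endosperm markers, prolamin transcripts were also lower at HT. Of 29 prolamin models, the alcohol-soluble storage proteins, 23 had both HT libraries below both RT libraries and 0 above, with a median log2 fold change of -1.27 and a summed level of 36766 and 42402 CPM at HT and 57235 and 116559 at RT. Of 17 glutelin models 3 were below and 0 above. Of all tested transcripts 17.7% were below and 19.1% above, so the glutelin count below was near that share. Of 34 pericarp models 2 were below and 3 above, and of 6 tested oleosin models 0 were below and 0 above. The part of storage protein RNA in the differences of the 9 genes was not tested.

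The mean profile of the 9 genes over the 4 libraries, in log2 CPM centred on each gene, was -0.36 in HT1, -0.10 in HT2, 0.17 in RT1 and 0.29 in RT2. DPE1 lay nearest to it, with a Euclidean distance of 0.181, and ISA2 farthest, with 0.795. Among the 6373 other genes with at least 10 CPM, the 5 nearest were LOC_Os03g15580.1 (AT hook motif family protein, distance 0.0508), LOC_Os05g50890.2 (OsGH3.5, a probable indole-3-acetic acid-amido synthetase, 0.0592), LOC_Os04g39220.1 (expressed protein, 0.0649), LOC_Os06g44230.1 (a chloroplast RNA polymerase, 0.0690) and LOC_Os10g22430.1 (gibberellin response modulator, 0.0815). None of the 5 is a starch enzyme by its description, and 69 other genes were nearer to the mean profile than DPE1. With 4 libraries, many genes share a profile.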

How the data were processed

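Read counts of 4 endosperm libraries (2 HT, 2 RT; groups from the sample titles) were analysed. The authors deposited counts per transcript model, described as uniquely mapped reads over exons, without normalization; aligner and genome build are not given in the sources used here. How reads in exons shared by models were divided is not stated. NA counts (26717 in each HT library and 29117 in RT2) were read as 0. In addition, 3 deposited columns of RPKM were not used. The value beside RT1 in the deposited table, headed RPKM, equals CPM multiplied by length in kilobases, not divided by it, for all 39719 transcripts with reads (relative tolerance 0.001), so RPKM was recomputed.

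Transcripts that reached 1 CPM in 2 or more libraries were tested with edgeR 4.0.16 (TMM, quasi-likelihood test, no replicate block, common dispersion 0.0746) in R 4.3.3, with Benjamini-Hochberg adjustment over all 27358. Standard errors follow from each log2 fold change and its F statistic. The model with the most reads stood for its gene. Python 3.11.15 with numpy 2.4.6, pandas 2.3.3 and scipy 1.17.1 gave ratios and permutation tests. The edgeR script was tested on simulated counts whose planted changes were larger than any difference of the 9 genes. That test therefore does not show whether changes of their size would be found. Alternatives were other scalings and filters, DESeq2 1.42.0, limma 3.58.1 on log2(RPKM + 1), gene sums, each library left out, the 2 dominant transcripts left out and replicate blocks. The 9 genes and the pathway lists were chosen with earlier results of these data known. In the lists, models with an unadjusted p under 0.05 could be named; of likeness, the 5 nearest genes. The pairs of genes described were picked after their ratios were seen, among all 36. The table of gene symbols matched 0 of the 9 IDs, so no positions or sequences are given.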

Additional observations from a re-analysis of the deposited data

How the results depend on the processing

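The small number of libraries, 2 at each temperature, limits all differences; ISA3 and DPE1, at 37 to 388 reads, are also limited by depth. In 16 alternatives no model of the 9 genes reached an adjusted p under 0.05 (the lowest was 0.292), and 13 of 284 single-model values changed sign, all of BEIIa, ISA2 or ISA3; the cause was not tested. BEIIa was -0.0032 with DESeq2 size factors in edgeR, -0.0054 with upper quartile normalization, -0.095 with library totals alone, -0.0098 without the filter and -0.0034 with DESeq2. Leaving out single libraries gave -0.18 to 0.22 for BEIIa, -0.12 to 0.59 for ISA2, and -0.042 to 0.28, -0.54 to 0.040 and -0.34 to 0.16 for ISA3 models 1, 2 and 3.

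All transcripts past the adjusted threshold numbered 0 in the edgeR fit as reported, 33 with library totals alone, 365 without the filter, 58 with DESeq2, and 0 to 345 without single libraries (42 without RT1, 345 without RT2); a lone library was then assumed to vary like the other group. Models of the 9 genes with an unadjusted p under 0.05 and lower at HT numbered 2 without the filter (3.17% of all transcripts), 5 with DESeq2 (1.18%) and 0 to 2 without single libraries (1.64% to 4.37%). Those with both HT libraries below numbered 6 both with 1 model per gene and with sums per gene, where fewer models are tested, and 14 to 16 without single libraries; those above numbered 0 to 3. With 3 libraries, 33.5% to 35% of all transcripts were below and 32.9% to 35.5% above, against 17.7% and 19.1% with 4, so these counts are no sign of stability. Pathway list models at an unadjusted p under 0.05 numbered, lower and higher, 2 and 0 with library totals alone (0.976% and 1.44% of all transcripts). They numbered 3 and 3 both with 1 model per gene (2.73% and 4% of genes) and with sums (2.81% and 4.19%). DESeq2 gave 4 higher (2.09% of all transcripts). Without single libraries they numbered 2 to 7 lower and 2 to 8 higher, against 1.64% to 4.37% and 1.99% to 7.16% of all transcripts. The shares of all transcripts thus changed between these fits too, so the ranges alone show nothing specific to the lists.

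The labels give no pairing by replicate number. With a replicate block the median of the 19 models was -0.50, and 0 transcripts passed the adjusted threshold. At an unadjusted p under 0.05, 5 pathway list models were then lower and 3 higher, against 1.3% and 2.41% of all transcripts. Deviations of HT1 and RT1 from their group means correlated at -0.401 over 27358 transcripts. A crossed replicate block, added after the data were seen, called 828 transcripts (3.03%), 0 of them of the 9 genes. At an unadjusted p under 0.05, 2 models of the 9 genes and 9 pathway list models were lower, against 6.29% of all transcripts. Those higher numbered 0 and 8, against 7.75%.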

Other observations

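A further branching enzyme gene, LOC_Os06g26234, had 1 to 10 reads per library at HT and 3 to 9 at RT in its 3 models, and did not pass the filter on low counts.

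The deposited value headed RPKM for RT1 exceeded the recomputed RPKM of this library by a factor set by the transcript length. The factor was 14.2 for ISA1, 12.7 for BEI, 8.75 for BEIIb, 3.97 for pullulanase and 1.60 for BEIIa. For BEIIb, RPKM scaled by the library total was 297 and 559 in HT1 and HT2, against 1094 and 660.4 in RT1 and RT2, and the deposited value for RT1 was 9571.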
